A study of Arabidopsis thaliana with 12 samples.

Results

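Dexamethasone (DEX) is a synthetic steroid, and plants without any glucocorticoid receptor (GR) sequence can change their transcripts when it is applied. The genes described here are those whose response to DEX differed between seedlings with and without an RVE8-GR fusion protein, measured as the interaction of line and treatment: the log2 change with DEX in *RVE8:GR* minus the log2 change with DEX in *rve8*. All 12 libraries of the series entered this contrast, 3 for each of the 4 groups. At an adjusted p-value under 0.01 (quasi-likelihood test of edgeR, adjusted by Benjamini-Hochberg), 237 of the 19961 gene models tested differed in their response, which is 1.19% of them. The response was larger (more positive) in *RVE8:GR* for 48 genes, 0.24% of those tested, and smaller (more negative) for 189 genes, 0.947%. Without TMM factors for library composition the split was 68 larger and 126 smaller, so that the larger made up 35.1% of the calls in place of 20.3%.

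Every group carried the *rve8-1* mutation. The *rve8* groups are labelled with that mutation alone, and the *RVE8:GR* groups carried in addition *RVE8::RVE8:GR*, a fusion of RVE8 with the GR from a genomic fragment of *RVE8* with its own promoter. The study's methods state that the fusion was put into *rve8-1* plants with a *CCR2::LUC+* reporter and that homozygous plants with the insertion at a single site were selected. The labels describe whole seedlings 7 days old, grown in 12 h light and 12 h dark on medium with 3% sucrose, which were moved at ZT4 (4 h after lights on) into liquid medium with DEX (*RVE8:GR* + DEX and *rve8* + DEX) or the solvent alone (*RVE8:GR* + mock and *rve8* + mock) and frozen after 4 h. Each library was made from about 30 seedlings, the 3 libraries of a group are biological replicates, and both *RVE8:GR* groups are labelled as the same line, so that its insertion site cannot be told apart from the fusion. The labels and the study's methods give the DEX concentration in different units, and the value was not used here. In RNA from whole seedlings, fewer cells of a type and less RNA per cell cannot be told apart.

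RVE8 is a MYB-like transcription factor of the plant circadian clock that binds the evening element (EE), a short promoter sequence found in many genes that peak near dusk. In the clock, the morning factors CCA1 and LHY repress evening genes such as *TOC1*, *PRR5*, *GI*, *LUX* and *ELF4*, while the pseudo-response regulators, among them PRR9, PRR7, PRR5 and TOC1, repress *CCA1* and *LHY* in turn. RVE8 and its relatives activate evening genes, together with the LNK coactivators. A protein fused to the GR stays in the cytoplasm until a steroid such as DEX lets it enter the nucleus, and plants have no GR of their own.

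The EE was searched as AAATATCT on both strands of the 1500 bp upstream of each start codon in the TAIR10.1 assembly. The element nearest to the start codon is shown for 8 genes whose response was larger in *RVE8:GR* and that also rose with DEX in *RVE8:GR*, since RVE8 binds this element and 29 of 31 promoters of such genes hold it. Capitals mark the EE, the position is that of the 8 capital letters, and each sequence is read 5′ to 3′ on the strand named.

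PRR5, chr5:8358726-8358733, forward strand: agaaaagaAAATATCTagaaaaaa

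ELF4, chr2:16734939-16734946, reverse strand: tttactatAAATATCTgatttctc

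COR27, chr5:17199895-17199902, reverse strand: tgtgtttgAAATATCTaaaaccaa

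COR28, chr4:16285190-16285197, reverse strand: ccaaaaaaAAATATCTggctgata

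AT1G07050, chr1:2165741-2165748, reverse strand: atgtatatAAATATCTaacagatt

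BT2, chr3:17910617-17910624, forward strand: cgtctcgcAAATATCTattttatt

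PDF2.1, chr2:538156-538163, forward strand: tacccccaAAATATCTaaacaaat

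J8, chr1:30405365-30405372, forward strand: accatttaAAATATCTcatgattc

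The element lies 58 bp from the start codon in *ELF4* and 815 bp from it in *J8*, with the other 6 between these distances. That of *BT2* falls inside the annotated transcript, in the leader before the start codon. Those of *COR27* and *COR28* lie upstream of the transcript model counted but within the leader of another model of the same gene, and that of *ELF4* lies within the annotated gene but in no exon. The other 4 lie upstream of the annotated gene, which for *PRR5* begins at the start codon. *PRR5* and *ELF4* each have 5 elements within the window, *COR27* and *COR28* have 4 each, and *PDF2.1* and *J8* have 1 each.

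Library totals ranged from 15975840 to 21713130 counts, so that 3 counts correspond to 0.138 to 0.188 counts per 1000000 counts of a library (CPM). Replicates correlated at Spearman's rho of 0.989 to 0.9952 across genes, the lowest for replicates 1 and 3 of *rve8* + mock, and no pair was close enough to be the same library. Root marker genes summed to 1724 to 2303 CPM and green shoot markers to 39730 to 57870 CPM over the 12 libraries, so both parts of the seedling were present in each. *RVE8* itself (AT3G09600) was read at 8.35 to 9.76 CPM in *RVE8:GR* + mock, 5.19 to 6.31 CPM in *RVE8:GR* + DEX and 0.601 to 2.06 CPM in all 6 *rve8* libraries. The lines were thus separated as labelled, although the counts do not tell the transgene from the mutated gene, and the response of *RVE8* to DEX did not differ by the test (log2 difference −0.46 ± 0.46 SE, edgeR adjusted p = 0.725).

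Within each line, many genes differed between DEX and mock treatment. In *RVE8:GR*, 414 genes were higher (2.07%) and 271 lower (1.36%) with DEX, and in *rve8*, 790 were higher (3.96%) and 313 lower (1.57%). These responses use the same libraries as the interaction, so for the 237 genes they only describe how each difference is made up. Of the 48 genes with the larger response, 32 rose in *RVE8:GR*, and 25 of these had no change called in *rve8*. A further 14 were not called in *RVE8:GR* and fell in *rve8*. The median response of the 48 genes was 0.58 on the log2 scale in *RVE8:GR* and −0.21 in *rve8*, and *RVE8:GR* + DEX was the highest group for 36 of them. The 189 genes with the smaller response were made up more evenly. Here 84 fell in *RVE8:GR*, 99 rose in *rve8*, and 14 did both, with median responses of −0.32 and 0.36. For 166 of the 189 the response was below 0 in *RVE8:GR* and above 0 in *rve8*. Here *rve8* + DEX was the highest group for 146 of the 189, and *RVE8:GR* + DEX the lowest for 120.

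**Figure D1:**
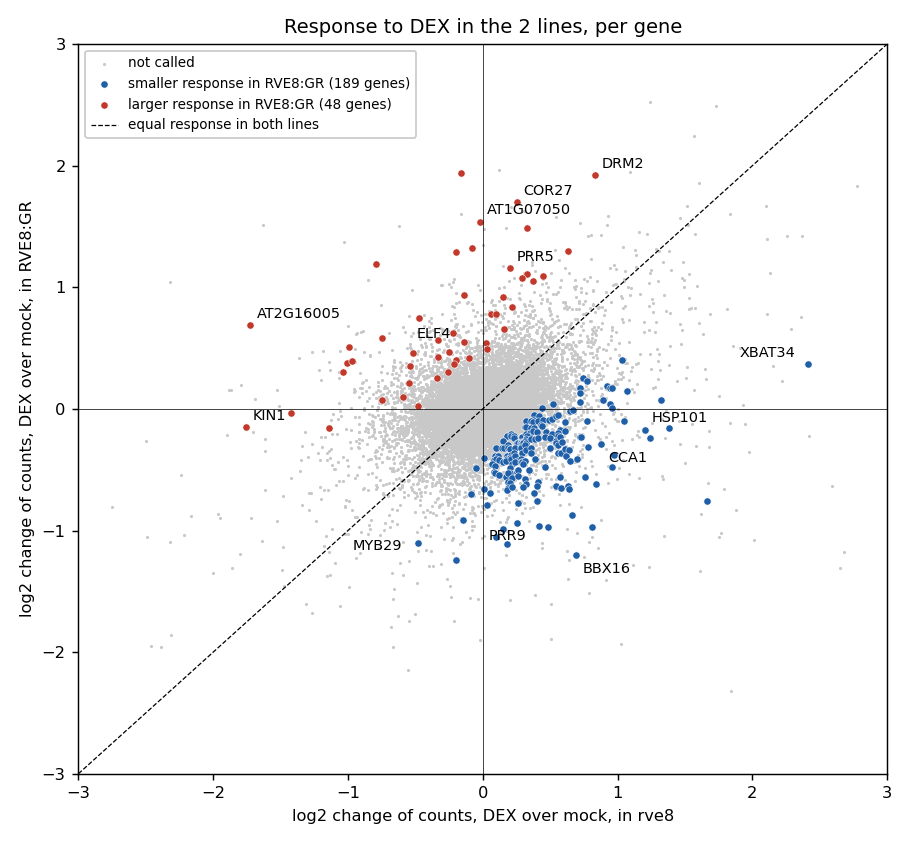
Each point is 1 gene, placed by its log2 change with DEX over mock in *rve8* (x axis) and in *RVE8:GR* (y axis), with the 48 genes of larger response in red, the 189 of smaller response in blue and the genes not called in grey. Points on the dashed line responded alike in both lines. The red points lie above it and most of them above 0 on the y axis. The blue points spread below it, mostly to the right of 0 on the x axis and below 0 on the y axis. Among genes not called, 11 lie beyond the axes.

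After mock treatment, 40 of the 48 genes and 157 of the 189 had no difference between the lines called. A gene not called can still differ, and calls after mock were more frequent in both sets than among all genes. The lines differed after mock in 261 genes that were higher (1.31%) and 83 that were lower (0.416%) in *RVE8:GR*. Of the 48 genes with the larger response 3 were called higher and 5 lower in *RVE8:GR* relative to *rve8* after mock, and of the 189 with the smaller response 27 were higher and 5 lower. After DEX, 43 of the 48 were higher in *RVE8:GR* and 150 of the 189 were lower, against 1.89% and 2.32% of all genes. In 29 of the 48 genes all 3 *RVE8:GR* + DEX libraries lay above the other 9 libraries, which held for 3.71% of all genes, and in 90 of the 189 all 3 lay below, which held for 2.63%. The 48 and 189 genes were chosen with these same libraries. Their high shares after DEX and their more frequent calls after mock follow in part from that choice and only describe it.

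Evening clock genes tended to the larger response. Of the 12 tested, *PRR5* and *ELF4* were called, both in this direction, 9 had a difference above 0, and the median was 0.40 against 0.01 for all genes tested. *PRR5* (AT5G24470), a pseudo-response regulator that represses *CCA1* and *LHY*, was read at 108, 99.9 and 101 CPM in the 3 *RVE8:GR* + DEX libraries and at 53.7, 38.3 and 46.2 CPM after mock in the same line. In *rve8* it stood at 37.0, 34.7 and 32.5 CPM with DEX and 29.4, 31.5 and 30.1 CPM without. The *RVE8:GR* + DEX libraries overlapped no other group, and the *RVE8:GR* + mock libraries lay above all 6 *rve8* libraries. *PRR5* rose by 1.16 in *RVE8:GR* on the log2 scale and changed by 0.20 in *rve8*, a difference of 0.97 ± 0.13 (SE, edgeR adjusted p = 0.000272).

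*ELF4* (AT2G40080), a component of the evening complex with LUX and ELF3, was counted at 31.4, 37.9 and 34.9 CPM in *RVE8:GR* + DEX and at 23.4 to 24.0 CPM in *RVE8:GR* + mock. The *rve8* libraries gave 24 to 27 CPM with DEX and 25 to 33 CPM without, so 1 mock library of *rve8* overlapped with *RVE8:GR* + DEX. The difference in response was 0.68 ± 0.14 (SE, edgeR adjusted p = 0.00903), and the call was lost with limma-voom and kept in 3 of the 12 fits that each left out 1 library, with adjusted p up to 0.0325 over all alternatives. The other evening genes were not called. *TOC1* had a log2 difference of 0.39 (edgeR adjusted p = 0.0272), *LUX* of 0.47 (0.0764), *PRR3* of 0.58 (0.139) and *GI* of 0.20 (0.264). *TOC1*, *LUX* and *GI* rose with DEX in *RVE8:GR*, by 0.64, 0.62 and 0.43 on the log2 scale, while in *rve8* their values were 0.25, 0.15 and 0.23 and were not called.

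Morning and day clock genes went the other way. Of the 14 tested, 5 had the smaller response, *CCA1*, *PRR9*, *LNK1*, *LNK2* and *LNK3*, none had the larger, 13 differences were below 0, and the median was −0.56. *CCA1* (AT2G46830), the morning MYB factor, was read at 16.7, 16.1 and 15.6 CPM in *RVE8:GR* + DEX and 20.4, 20.2 and 18.5 CPM in *RVE8:GR* + mock. In *rve8* it stood at 45.7, 62.5 and 50.3 CPM with DEX against 27.9, 26.4 and 31.7 CPM without. All 6 *RVE8:GR* libraries lay below all 6 *rve8* libraries. *CCA1* rose by 0.88 in *rve8* and had a value of −0.29 in *RVE8:GR* that was not called (edgeR adjusted p = 0.128), and the difference was −1.17 ± 0.15 (SE, edgeR adjusted p = 8.71e-05). *LHY* (AT1G01060), the close relative of *CCA1*, had a similar estimate with a wider error, −1.13 ± 0.28 (SE, edgeR adjusted p = 0.026), and was not called. It was called with DESeq2 and in 1 of the 12 fits without 1 library. Its libraries gave 2.24 to 2.62 CPM in *RVE8:GR* + DEX, 3.09 to 3.47 CPM in *RVE8:GR* + mock, 8.36 to 13.7 CPM in *rve8* + DEX and 5.35 to 8.07 CPM in *rve8* + mock.

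*PRR9* (AT2G46790) had the largest difference among the clock genes. It was counted at 7.16, 6.91 and 6.13 CPM in *RVE8:GR* + DEX, 13.1, 13.9 and 12.5 CPM in *RVE8:GR* + mock, 15, 19 and 18 CPM in *rve8* + DEX and 12.4, 13.0 and 13.8 CPM in *rve8* + mock. Only the *RVE8:GR* + DEX libraries lay below 12 CPM, and the 2 mock groups overlapped. It fell by 0.96 in *RVE8:GR* and changed by 0.42 in *rve8* (edgeR adjusted p = 0.0136), a difference of −1.38 ± 0.16 (SE, edgeR adjusted p = 4.15e-05). A second locus, AT2G46670, moved alike (−1.45). Of its 50-base stretches, 87.3% also occur in other genes, with *PRR9* the closest match, so the counts of this pair cannot be divided with certainty.

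The *LNK* genes, which encode coactivators of RVE8 and its relatives, shared the direction. *LNK3* (AT3G12320) was read at 8.05, 7.47 and 6.36 CPM in *RVE8:GR* + DEX and 12.3, 14.1 and 10.7 CPM in *RVE8:GR* + mock. The *rve8* libraries held 17.3, 19.6 and 21.1 CPM with DEX and 16.6, 13.8 and 13.6 CPM without. *LNK3* fell in *RVE8:GR*, *RVE8:GR* + DEX overlapped no other group, and the difference was −1.16 ± 0.18 (SE, edgeR adjusted p = 0.000658). *LNK1* (−0.55) and *LNK2* (−0.56) had smaller differences. Both rose in *rve8*, by 0.33 and 0.43, and had values of −0.22 and −0.13 in *RVE8:GR* that were not called. The *RVE8:GR* + DEX libraries of *LNK1*, at 46.4 to 46.7 CPM, lay below all others, which held 49.5 to 69.5 CPM. *LNK4* just missed the threshold (−0.59, edgeR adjusted p = 0.0102). The call for *LNK1* was kept in all 12 fits without 1 library and that for *LNK2* in 2. *RVE7*, at 0.19, was the only gene of this list above 0, and it was not called.

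Cold regulated genes held 3 of the 48 genes with the larger response, and the 10 tested had a median of 0.19. *COR27* and *COR28* are related small proteins that are induced by cold and controlled by the clock. *COR27* (AT5G42900) was read at 13.2, 12.5 and 12.2 CPM in *RVE8:GR* + DEX and at 2.67 to 5.13 CPM in the other 9 libraries. It rose by 1.70 in *RVE8:GR* against 0.25 in *rve8*, a difference of 1.45 ± 0.27 (SE, edgeR adjusted p = 0.00385). *COR28* (AT4G33980) stood at 8.94, 8.72 and 8.37 CPM in *RVE8:GR* + DEX and at 2.75 to 4.04 CPM elsewhere, with a difference of 1.4 ± 0.26 (SE, edgeR adjusted p = 0.00385). Neither gene's *RVE8:GR* + DEX libraries overlapped with the rest, and both calls were kept in 6 of the 12 fits without 1 library.

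*KIN1* (AT5G15960), a target of cold and abscisic acid signalling, reached its difference by another route. It was counted at 61.1, 65.0 and 52.1 CPM in *RVE8:GR* + DEX, 70.2, 61.2 and 66.2 CPM in *RVE8:GR* + mock and 55.8, 63.7 and 75.4 CPM in *rve8* + mock, 3 groups that overlapped. In *rve8* + DEX it was read at 17.0, 15.1 and 25.1 CPM. *KIN1* fell by 1.76 in *rve8*, its value in *RVE8:GR* was −0.15 and not called (edgeR adjusted p = 0.723), and the difference of 1.61 ± 0.25 (SE, edgeR adjusted p = 0.00746) was lost without the filter on low counts and kept in 2 of the 12 fits without 1 library. The better known cold genes *LTI78* (−0.33), *COR15A* (−0.65) and *COR47* (0.25) were not called, and *CBF1* to *CBF3* did not pass the filter on low counts.

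Among the 20 called genes with the largest positive difference and a mean of at least 5 CPM, several rose in *RVE8:GR* and had no change called in *rve8*. AT1G07050, which encodes a protein with the CCT domain shared by CONSTANS and the pseudo-response regulators, was read at 34.0, 31.3 and 27.5 CPM in *RVE8:GR* + DEX, 9.02 to 11.7 CPM in *RVE8:GR* + mock and 5.04 to 8.53 CPM in the 6 *rve8* libraries. Its difference was 1.56 ± 0.24 (SE, edgeR adjusted p = 0.00128). *BT2* (AT3G48360), a BTB and TAZ domain protein known from responses to nitrate, sugar and hormones, stood at 88.4, 70.4 and 96.1 CPM in *RVE8:GR* + DEX and at 39.9 to 52.1 CPM in the other 9 libraries. *BT2* differed by 1.08 ± 0.16 (SE, edgeR adjusted p = 0.0014). In both genes the induced libraries were apart from all others.

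*PDF2.1* (AT2G02120), of the plant defensin family, was counted at 10.2, 12.8 and 12.7 CPM in *RVE8:GR* + DEX and at 2.22 to 6.11 CPM elsewhere, and had the second largest difference of these genes, 2.1 ± 0.33 (SE, edgeR adjusted p = 0.00127). AT3G62550, annotated as an adenine nucleotide alpha hydrolase-like protein, reached 152, 161 and 177 CPM in *RVE8:GR* + DEX against 41.4 to 70.4 CPM elsewhere (difference 1.16 ± 0.15, SE). Proteins with a DnaJ domain, a co-chaperone module, were encoded by AT1G30280 (1.5 ± 0.19, SE) and by *J8* (0.78 ± 0.11, SE), the latter located in the chloroplast. AT1G30280 was read at 17.0 to 22.1 CPM in *RVE8:GR* + DEX and 6.11 to 9.06 CPM elsewhere, and *J8* at 84.1 to 97.0 CPM against 39.0 to 57.5 CPM. *CIPK21*, a protein kinase that acts with calcium sensors, was at 46.6 to 50.1 CPM against 26.1 to 34.8 CPM (0.83 ± 0.12, SE), with 10.8% of its 50-base stretches shared with another gene. For these genes too the induced libraries overlapped with none of the others.

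Of the 48 genes, 4 rose with DEX in both lines, and the rise was larger in *RVE8:GR* because the 48 were chosen for that. *DRM2* (AT2G33830), a dormancy-associated gene that is repressed by sugar, was the only gene called of 18 in the list of genes induced by darkness and sugar starvation. It was counted at 294, 271 and 291 CPM in *RVE8:GR* + DEX, 82.0, 59.3 and 85.5 CPM in *RVE8:GR* + mock, 108, 95.8 and 106 CPM in *rve8* + DEX and 55.1, 51.7 and 68.0 CPM in *rve8* + mock. *DRM2* rose by 1.92 in *RVE8:GR* and by 0.83 in *rve8*, a difference of 1.09 ± 0.18 (SE, edgeR adjusted p = 0.00745) that was lost without the filter on low counts and kept in 4 of the 12 fits without 1 library. *Fes1B*, a relative of chaperone exchange factors, AT2G30600, a BTB domain protein, and AT5G62360, an invertase or pectin methylesterase inhibitor, are the other 3 genes that rose in both lines. Of the 18 starvation genes 17 had a difference above 0 and the median was 0.40, but besides *DRM2* none was called.

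**Figure D2:**
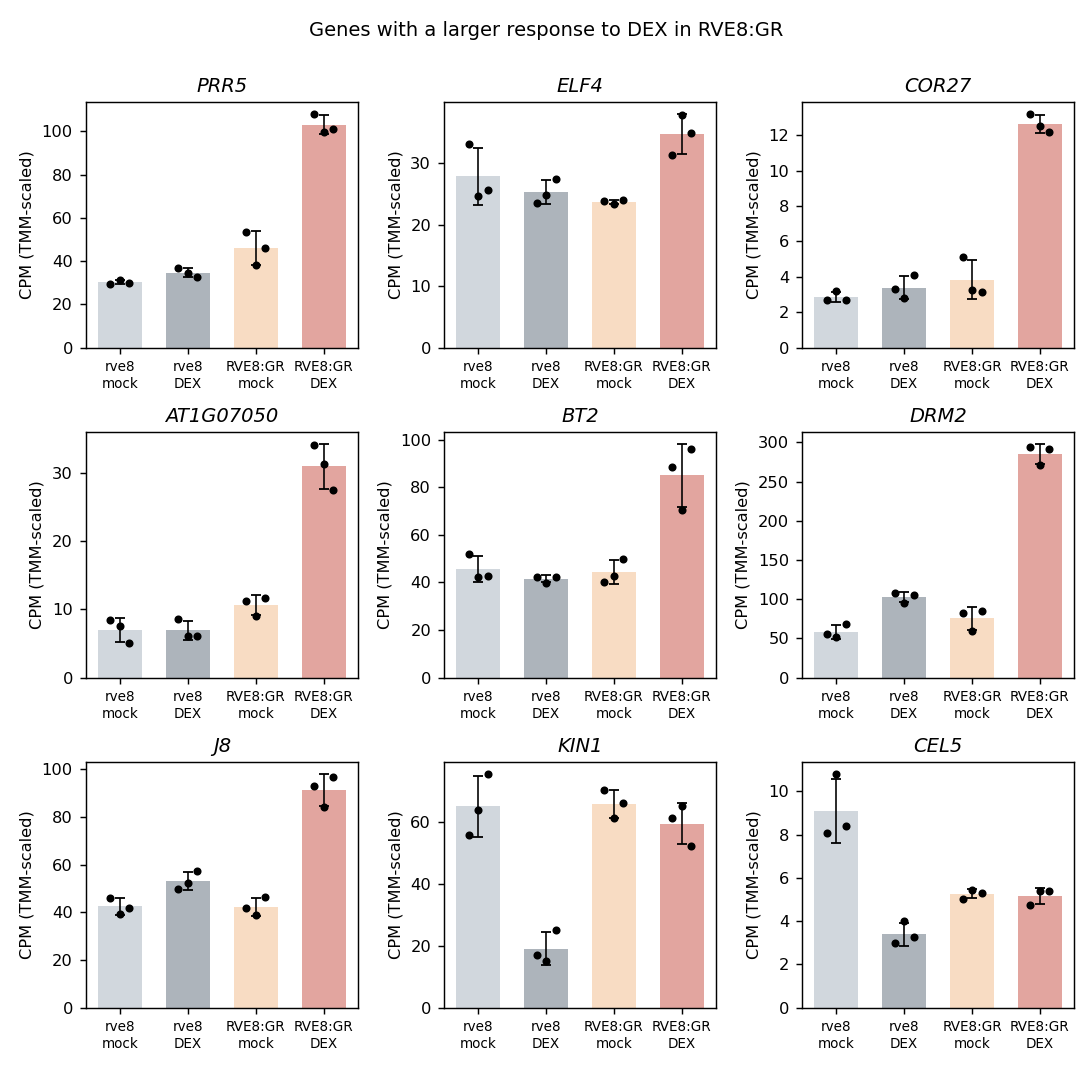
CPM, scaled with TMM factors, of 9 genes with the larger response in *RVE8:GR*: bars are group means, error bars the SD of 3 libraries, and dots the libraries. For *PRR5*, *COR27*, AT1G07050, *BT2*, *DRM2* and *J8* the *RVE8:GR* + DEX libraries stand above all others; for *KIN1* and *CEL5* the *rve8* + DEX libraries stand below all others instead.

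A second set of genes with the larger response was marked by a fall in *rve8* that was not called in *RVE8:GR*. *CEL5* (AT1G22880), a cellulase, was read at 2.97, 3.99 and 3.25 CPM in *rve8* + DEX and 8.06, 10.8 and 8.42 CPM in *rve8* + mock. In *RVE8:GR* it stood at 4.73 to 5.39 CPM with DEX and 5.03 to 5.44 CPM without, between the *rve8* groups. It differed by 1.39 ± 0.23 (SE, edgeR adjusted p = 0.00117). *ACO1*, which makes ethylene from its precursor (1.49), *GolS4*, a galactinol synthase (1.39), *CYP71A27* (0.98), the amino acid permease *AAP3* (0.89), AT3G45680 of the major facilitator superfamily (1.35) and AT2G43535 of the knottin superfamily (1.36) had the same pattern. AT2G16005, a protein with a lipid recognition domain, had the largest difference of all 48 genes, 2.42 ± 0.33 (SE, edgeR adjusted p = 0.00537), with 8.97 to 16.5 CPM in *rve8* + DEX against 28.1 to 63.0 CPM in the other groups. That call was kept in 4 of the 12 fits without 1 library.

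The EE was found in a larger share of the promoters of genes with the larger response than of all genes. Of the 48 genes, 47 have an annotated promoter window, and 36 of these, or 76.6% (95% exact binomial interval 62.0 to 87.7, counting error only), held at least 1 EE, against 20.5% of 19322 promoters of tested genes. At least 2 elements were found in 36.2% against 2.97%, and an element within 500 bp of the start codon in 42.6% against 8.29%. Among the genes that rose with DEX in *RVE8:GR*, 29 of 31 promoters (93.5%) held an EE, and among those with no rise called there, 7 of 16 (43.8%). The 2 promoters without an EE in the first set were those of *GUS2*, a glucuronidase, and AT4G36850, annotated with PQ-loop repeats. The G-box (CACGTG, the same on both strands) was in 23.4% of the 47 promoters and 21.8% of all. These shares are a description of letters in a window and were not tested.

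**Figure D3:**
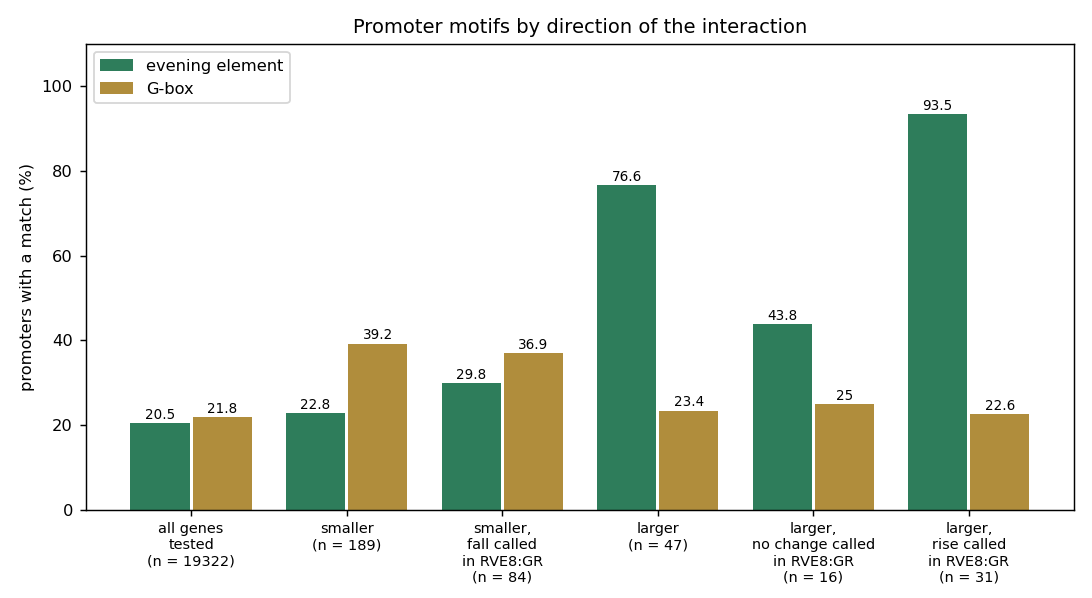
Bars give the percent of promoters (1500 bp upstream of the start codon) with at least 1 EE (green) or G-box (ochre) in all genes tested and in the genes with the smaller and the larger response, n being the number of promoters. The EE share is 20.5% in all genes and 93.5% in genes with the larger response that rose with DEX in *RVE8:GR*; the G-box share is 39.2% in genes with the smaller response and 21.8% in all.

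In the photoperiodic flowering list, 5 of 9 genes tested were called, 1 larger and 4 smaller. *COL9* (AT3G07650), a CONSTANS-like gene that delays flowering, rose in *RVE8:GR* from 12.0, 12.2 and 12.4 CPM to 27.1, 24.7 and 24.2 CPM. In *rve8* it was at 9.75 to 11.9 CPM with mock and 12.7 to 14.5 CPM with DEX. Its difference of 0.68 ± 0.14 (SE, edgeR adjusted p = 0.00851) was lost with limma-voom and in thinned libraries and kept in 1 of the 12 fits without 1 library. The 4 with the smaller response were *CDF1* (−0.81) and *CDF3* (−0.73), DOF factors of the family that represses *CONSTANS*, and the CONSTANS-like genes *COL1* (−0.75) and *COL2* (−1.13). *CDF3* (AT3G47500) was read at 44.9, 44.5 and 39.3 CPM in *RVE8:GR* + DEX and at 45.3 to 66.7 CPM in the other 9 libraries, a range it did not reach, and fell by 0.53 in *RVE8:GR*. *CONSTANS* itself was not called (0.96, edgeR adjusted p = 0.246), and *FT* did not pass the filter. Without *RVE8:GR* + mock replicate 2, 1 of the 5 calls was left.

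The B-box zinc finger proteins are transcription factors of light signalling. Of 11 tested, 3 had the smaller response and none the larger, with a median of −0.38. *BBX16* (AT1G73870) had the largest negative difference of the called genes with a mean of at least 5 CPM. It was read at 8.00, 7.28 and 6.99 CPM in *RVE8:GR* + DEX, 18, 17 and 16 CPM in *RVE8:GR* + mock, 22.1, 24.7 and 22.1 CPM in *rve8* + DEX and 14.1, 14.1 and 14.4 CPM in *rve8* + mock. DEX moved it down by 1.2 in *RVE8:GR* and up by 0.69 in *rve8*, both called, and no groups overlapped. The difference was −1.89 ± 0.14 (SE, edgeR adjusted p = 1.16e-07), the smallest p of the named genes, and held in every alternative. *BBX18* (−1.19) and *BBX25* (−0.86) fell in *RVE8:GR* and had no change called in *rve8*. *BBX32*, named after its values were seen, had a difference of −1.78 at 0.688 to 0.835 CPM in *RVE8:GR* + DEX and 2.3 to 6.3 CPM in the *rve8* libraries.

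Genes of plastid pigment synthesis were found among the 189 with the smaller response. The lists of tetrapyrrole synthesis, plastid isoprenoids, light signalling, sulfate assimilation, plastid sigma factors and TIR-NBS-LRR proteins were drawn up after these values had been seen, so their counts are only a way to order the genes. Of 25 genes of tetrapyrrole synthesis, the pathway to chlorophyll and heme, 5 were called, all smaller: *HEMA1* (glutamyl-tRNA reductase, the first committed step), *GUN5* and *GUN4* (a subunit and an activator of magnesium chelatase), *CH1* (which makes chlorophyll b) and *CHLP* (geranylgeranyl reductase). The median of the 25 was −0.07. *GUN5* (AT5G13630) was read at 774, 854 and 803 CPM in *RVE8:GR* + DEX, 1070, 1000 and 960 CPM in *RVE8:GR* + mock, 1030, 1170 and 1040 CPM in *rve8* + DEX and 876, 833 and 819 CPM in *rve8* + mock. Libraries of *RVE8:GR* + DEX overlapped with *rve8* + mock. *GUN5* fell by 0.32 in *RVE8:GR* and rose by 0.36 in *rve8*, a difference of −0.68 ± 0.09 (SE, edgeR adjusted p = 0.000268).

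*HEMA1* (AT1G58290) was at 164 to 176 CPM in *RVE8:GR* + DEX and 189 to 267 CPM in the other 9 libraries, with a difference of −0.76 ± 0.10 (SE, edgeR adjusted p = 0.000123). The plastid isoprenoid genes called were 5 of 26, namely *CLA1* at the entry of the pathway (−0.53), *BCH2* and *ABA1* of xanthophyll synthesis (−1.13 and −0.80), and *VTE1* and *PDS1* of tocopherol and plastoquinone synthesis (−0.98 and −0.68). *ABA1* (AT5G67030), the zeaxanthin epoxidase, rose by 0.54 in *rve8*, from 104 to 117 CPM with mock to 145 to 170 CPM with DEX, and was at 109 to 116 CPM in *RVE8:GR* + DEX. Of 6 sigma factors, which direct the plastid RNA polymerase to its promoters, *SIGE* and *SIGA* were called. *SIGE* (AT5G24120), which responds to blue light, was read at 12.4, 11.2 and 9.92 CPM in *RVE8:GR* + DEX, 14.0 to 15.0 CPM in *RVE8:GR* + mock, 22.7, 24.6 and 24.1 CPM in *rve8* + DEX and 11.5 to 13.4 CPM in *rve8* + mock. It rose in *rve8* by 0.97, and the difference was −1.35 ± 0.15 (SE, edgeR adjusted p = 2.96e-05).

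Light signalling genes with the smaller response were 7 of 21: the blue light receptor *PHOT2* (−0.58), its partners in phototropism and chloroplast movement *RPT2* (−0.57), *PKS2* (−0.53) and *JAC1* (−0.84), the repressors of light responses *SPA1* (−0.60) and *SPA3* (−0.59), and *GLK2* (−0.57), which promotes chloroplast development. *JAC1* (AT1G75100) was counted at 28.0, 30.5 and 29.9 CPM in *RVE8:GR* + DEX, 38.2, 42.8 and 43.8 CPM in *RVE8:GR* + mock, 53.4, 55.9 and 53.1 CPM in *rve8* + DEX and 37.6, 41.0 and 49.2 CPM in *rve8* + mock. The groups with DEX each stood apart, 1 at the bottom and 1 at the top, and the mock groups overlapped between them. *JAC1*, *PHOT2* and *RPT2* are among the 14 genes that fell in *RVE8:GR* and rose in *rve8*.

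**Figure D4:**
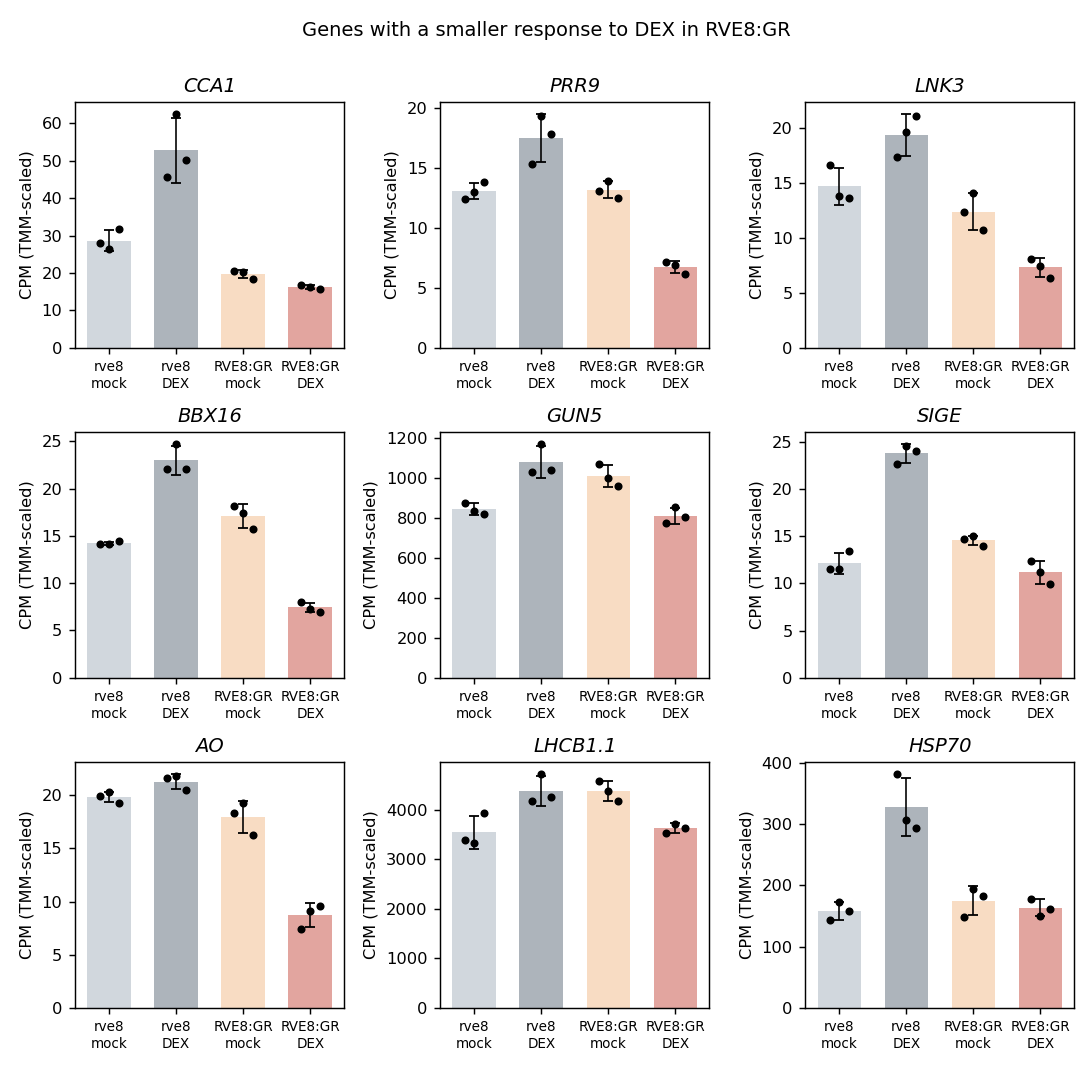
CPM, scaled with TMM factors, of 9 genes with the smaller response in *RVE8:GR*: bars are group means, error bars the SD of 3 libraries, and dots the libraries. *PRR9*, *LNK3*, *BBX16* and *AO* are lowest in *RVE8:GR* + DEX; *CCA1*, *SIGE* and *HSP70* are highest in *rve8* + DEX.

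The light harvesting genes encode the chlorophyll-binding antenna proteins of the photosystems. Of 20 tested, 5 had the smaller response (*LHCB1.1*, *LHCB1.2*, *LHCB1.4*, *LHCB2.3* and *LHCB3*), 19 were below 0, and the median was −0.42. *LHCB1.1* (AT1G29920) was read at 3520, 3720 and 3630 CPM in *RVE8:GR* + DEX, 4580, 4370 and 4170 CPM in *RVE8:GR* + mock, 4170, 4720 and 4250 CPM in *rve8* + DEX and 3380, 3330 and 3930 CPM in *rve8* + mock. The difference was −0.57 ± 0.10 (SE, edgeR adjusted p = 0.00192). Of the gene's 50-base stretches, 20.5% also occur in other genes, with *LHCB1.3* the closest match. Its counts are thus uncertain, as are those of *LHCB1.4* (13.7%) and *LHCB1.2* (10.6%, with *LHCB1.1* the closest match). Between 0 and 13 of the 20 genes were called when 1 library was left out, with 0 without *RVE8:GR* + DEX replicate 1 and 13 without *rve8* + mock replicate 3. The green shoot markers moved beside them. All 8 had differences below 0, from −0.44 to −0.13 with a median of −0.22 and none called by edgeR (4 at an unadjusted p under 0.05, 3 called by DESeq2 and 1 by limma-voom), and their summed level was 39730 to 48240 CPM in *rve8* + mock, 51790 to 57870 CPM in *rve8* + DEX, 44270 to 46870 CPM in *RVE8:GR* + mock and 46910 to 50050 CPM in *RVE8:GR* + DEX. Of all 19961 genes tested, 1620 had a difference below 0 and 1156 one above 0 at an unadjusted p under 0.05. The part of the green tissue in the plastid and light harvesting results was not tested.

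Heat shock genes had the lowest median of all lists, −0.97 over 20 tested, which was made by a rise in *rve8* (median 0.79) and little change in *RVE8:GR* (−0.07). The chaperones *HSP101* (−1.37), *HSP70* (−1.15) and *HSP90.1* (−0.92) were called. The calls for *HSP101* and *HSP90.1* were lost without TMM factors (adjusted p = 0.0125 and 0.0198 by edgeR) and without the filter on low counts (0.0162 and 0.0105), and that for *HSP101* also with limma-voom (0.0104). *HSP70* (AT3G12580) was read at 382, 307 and 294 CPM in *rve8* + DEX and at 143 to 194 CPM in the other 9 libraries, which overlapped with each other. Its difference had an edgeR adjusted p of 0.00315 and was kept in 8 of the 12 fits without 1 library. The summed level of the list was 793.2 to 1056 CPM in *rve8* + DEX and 422.8 to 632.5 CPM in the other groups. No heat shock gene of the list was called without *RVE8:GR* + DEX replicate 2, *RVE8:GR* + DEX replicate 3, *rve8* + mock replicate 1 or *rve8* + mock replicate 3.

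Primary metabolism was represented on the smaller side by genes of several pathways. *AO* (AT5G14760), L-aspartate oxidase at the start of NAD synthesis, was counted at 7.44, 9.14 and 9.57 CPM in *RVE8:GR* + DEX and at 16.3 to 21.8 CPM in the other 9 libraries. It fell by 1.05 in *RVE8:GR* and had a log2 change of 0.10 in *rve8*, a difference of −1.15 ± 0.14 (SE, edgeR adjusted p = 8.71e-05). In the sulfate assimilation list 5 of 23 genes were called. These included the transporter *SULTR3;1* (−1.30), and *ATPS1* (−0.46) and *APR2* (−0.65) of sulfate activation and reduction. The others were *CYSC1* (−0.46), annotated as a cysteine synthase, and the glutathione reductase gene *GR1* (−0.42). *SULTR3;1* (AT3G51895) was at 6.04 to 8.02 CPM in *RVE8:GR* + DEX, 10.3 to 12.4 CPM in *RVE8:GR* + mock, 13.5 to 15.8 CPM in *rve8* + DEX and 8.66 to 10.1 CPM in *rve8* + mock, with no overlap between groups. The starch lists gave *APL3* (−0.76) of synthesis and *BAM1* (−0.58) and *BAM9* (−0.80), members of the beta-amylase family, of 10 and 20 genes tested.

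Fewer calls came from the lists of specialised metabolism and hormones. *UGT78D2*, a flavonoid glucosyltransferase, was the only gene called of 14 anthocyanin genes (−1.03 ± 0.14, SE, edgeR adjusted p = 0.000249). The median of that list was −0.90, yet the late genes *DFR* (−1.19) and *LDOX* (−1.18) had edgeR adjusted p of 0.511 and 0.391. *MYB29*, a regulator of aliphatic glucosinolates, fell in both lines, by 1.1 in *RVE8:GR* and 0.48 in *rve8*, and was the only gene called of 20 (−0.62 ± 0.11, SE). Among 25 abscisic acid genes, the phosphatase *HAB1* (−0.76), the transcription factor *ABF3* (−0.95) and the drought gene *RD22* (−0.73) were called. None was called of 11 early flavonoid, 10 indolic glucosinolate, 20 salicylic acid and immunity, 26 jasmonate, 22 auxin and elongation, 3 chloroplast J protein and 15 iron and nitrate genes by edgeR. At an unadjusted p under 0.05 these lists had 5, 4, 7, 7, 10, 2 and 5 genes in the same order. Of these, 5, 3, 7, 7, 10, 1 and 3 had a difference below 0. Among all 19961 genes tested, 1156 with a difference above 0 and 1620 with one below 0 passed this unadjusted threshold. Over all members tested, DESeq2 called 1 early flavonoid, 2 immunity and 1 J protein gene, and limma-voom none. The jasmonate list had 24 of 26 differences below 0 with a median of −0.26, and the auxin list 20 of 22 with −0.34, values that stand beside 9525 below 0 of 19961 genes tested.

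**Figure D5:**
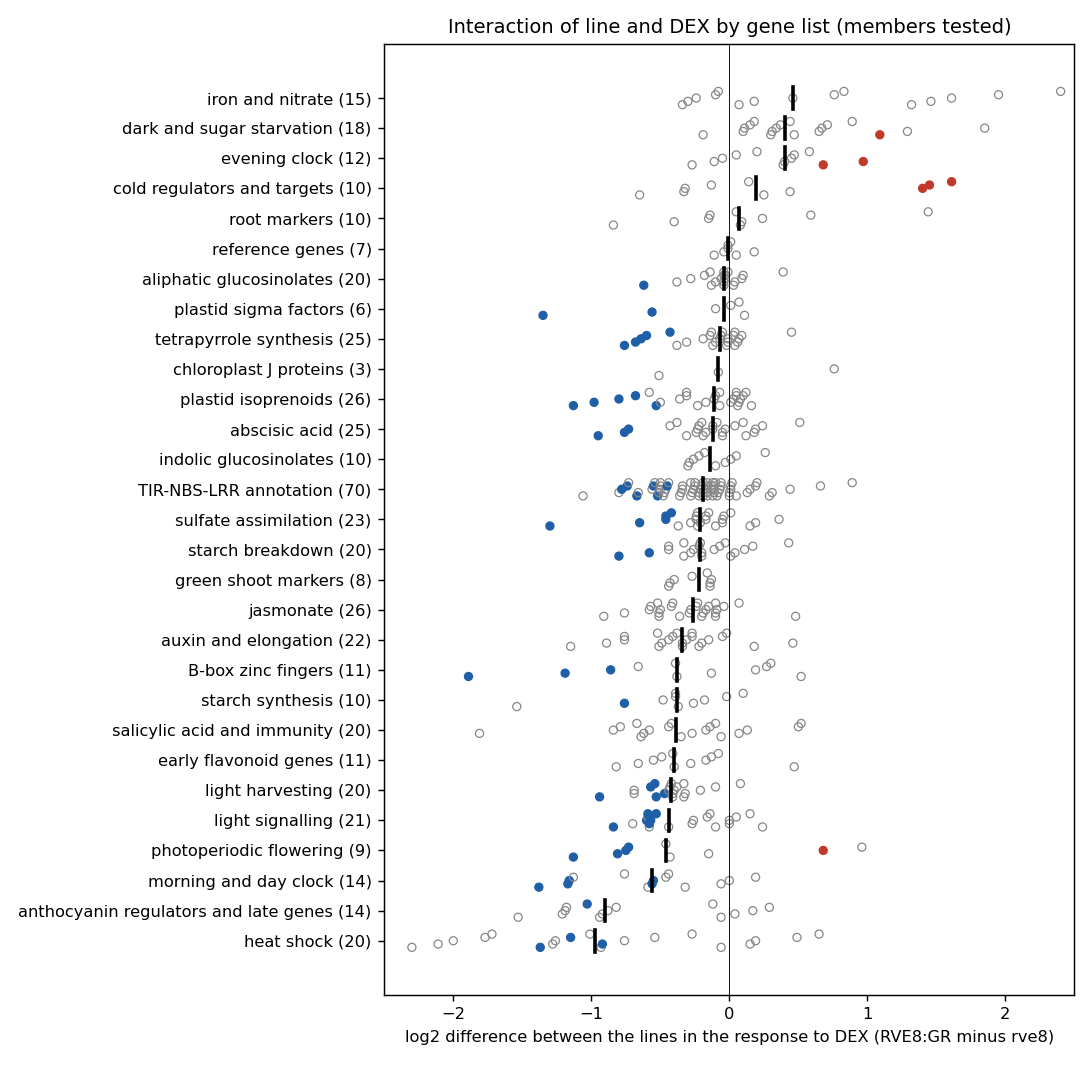
Each circle is a tested gene of the list named at the left (number tested in parentheses), placed by its log2 difference in response, *RVE8:GR* minus *rve8*; filled circles were called (red larger, blue smaller) and black bars are list medians. Red circles occur in the evening clock, cold, starvation and flowering lists, while blue circles occur in 16 lists, the morning clock and heat shock lists having among the lowest medians. 1 gene lies beyond the axes.

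Other genes with large negative differences rose in *rve8* + DEX. *RING1* (AT5G10380), a ubiquitin ligase of defence, was read at 9.66 to 14.8 CPM in *rve8* + DEX, 4.29 to 5.04 CPM in *rve8* + mock and 7.05 to 10.8 CPM in the *RVE8:GR* libraries, which overlapped with *rve8* + DEX, with a difference of −1.54 ± 0.23 (SE, edgeR adjusted p = 0.000438). *THI2.2*, a thionin, was at 9.92 to 10.8 CPM in *RVE8:GR* + DEX and 28.3 to 30.1 CPM in *rve8* + DEX, with the mock groups at 13.1 to 20.3 CPM between them (−1.26 ± 0.15, SE, edgeR adjusted p = 5.16e-05). Of 70 genes annotated as TIR-NBS-LRR disease resistance proteins, 6 had the smaller response and none the larger. Members of this family share sequence, and 3 of the 6 have at least 10% of their stretches in another gene, *RPP1* with 37.8%. *XBAT34* (−2.04) and *CYP71B24* (−2.42), named after their values were seen, had the largest negative differences of the 189, at means under 5 CPM.

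Reference genes differed little between the lines. The 7 tested ran from −0.11 (*UBQ10*) to 0.18 (*UBC21*) and none was called by edgeR, DESeq2 or limma-voom, nor had any an unadjusted p under 0.05. *PP2A* (AT1G13320) was read at 66.1 to 75.9 CPM over all 12 libraries, with a difference of −0.04 ± 0.09 (SE, edgeR adjusted p = 0.901). At the threshold, the last genes called were *GPT1* (0.55), *UP6* (−1.31) and AT2G20560 (−0.90), with edgeR adjusted p of 0.00989 to 0.00992, and the first not called were *ALDH3I1* (−0.43), *JMJD5* (0.96) and AT2G31560 (−0.88), at 0.0101.

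Among the promoters of the 189 genes with the smaller response, 22.8% held an EE, against 20.5% of all, and 39.2% (95% exact binomial interval 32.2 to 46.5) held a G-box, against 21.8% of all. At least 2 G-boxes were found in 12.2% against 4.65%. The G-box share was 36.9% in the 84 genes that fell in *RVE8:GR* and 40.4% in the 99 that rose in *rve8*. *LNK3* and *BAM1* have 3 G-boxes each, and *PRR9*, *SULTR3;1* and *BAM9* have 2 each, while *BBX16*, *AO* and *SIGE* have neither motif. These shares too are a description.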

How the data were processed

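RNA-seq was made from *rve8* and *RVE8:GR* seedlings after DEX or mock treatment, 3 libraries per group, grouped by genotype and treatment in the labels. The authors deposited raw counts per gene model in 1 table. Before that they filtered reads by quality, used BWA with the representative TAIR10 cDNA models as reference and counted reads of 1 strand. The treatment of reads matching several models is not given in the sources used here. The 33457 empty entries were taken as 0, no count below 1 being written in the table.

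The members and gene lists were chosen with earlier results of these data known. Counts were tested with edgeR 4.0.16 in R 4.3.3 (quasi-likelihood test, robust dispersion, TMM factors, no covariate, all 4 groups fitted together) on the 19961 of 26245 models that reached 1 CPM in 3 or more libraries. The threshold for a call was 0.01 on the Benjamini-Hochberg adjusted p-value, as in the study, whereas the study compared pairs of groups with edgeR's exact test. SE values come from the same test. CPM are scaled with TMM factors. Totals of 15975840 to 21713130 counts set the precision of low genes, and 3 counts were taken as the floor. Intervals are 95% Clopper-Pearson intervals and cover counting error only.

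Named genes are all list members called, the 20 with the largest difference in each direction among called genes with a mean of at least 5 CPM, *PRR5*, *TOC1*, *PRR3*, *GI*, *LUX*, *ELF4*, *CCA1*, *LHY*, *PRR9* and *RVE8*, and the reference genes. All others were named after their values were seen, as were 6 of the 29 lists made. Promoters of 1500 bp before the start codon in TAIR10.1 stand in for a promoter table that was not used here, and coordinates and symbols are those of TAIR10.1 in RefSeq, joined to the counts by gene name only (213 of the models tested were not matched). Genes sharing at least 10% of their 50-base stretches with another cDNA were taken as uncertain.

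Tests on simulated data used 200 changed genes among 19961, drawn from those with a mean of at least 5 CPM. These differed by 1 on the log2 scale between the lines in their response, and no other difference between groups was put in. Of them 168 were called, with 5 false calls. The real calls had median differences of 0.83 and −0.68, and the recovery of changes below 1 was not tested. Alternatives were limma-voom (limma 3.58.1), DESeq2 1.42.0, other scaling and filters, libraries thinned to the smallest total, a replicate block, a threshold of 0.05 and leaving out each library. Tables and figures were made with Python 3.11.15, pandas 2.3.3, numpy 2.4.6 and matplotlib 3.10.9, and the intervals with scipy 1.17.1.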

Additional observations from a re-analysis of the deposited data

Results flagged for a closer look

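The results below are those where the test of the difference itself, the interaction of line and treatment in edgeR's quasi-likelihood test with an adjusted p under 0.01, found that the response to DEX differed between *RVE8:GR* and *rve8*. Groups of 3 libraries are too few for a test of a single library far from the others, and the table holds no measurement outside the comparison. In all, 48 genes had a larger and 189 a smaller response in *RVE8:GR*. No explanation was tested for any of them. The values that follow are log2 differences in response, *RVE8:GR* minus *rve8*.

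Among the named genes with a larger response, those of the clock, flowering and cold were *COR27* (1.45), *COR28* (1.4), *PRR5* (0.97), *ELF4* (0.68), *COL9* (0.68) and *KIN1* (1.61). *DRM2* (1.09) stands in the list of genes induced by darkness and sugar starvation. The other named genes with a larger response were *AT2G16005* (2.42), *PDF2.1* (2.1), *AT1G07050* (1.56), *AT1G30280* (1.5), *ACO1* (1.49), *CEL5* (1.39), *GolS4* (1.39), *AT2G43535* (1.36), *AT3G45680* (1.35), *AT2G05510* (1.34), *AT1G60680* (1.22), *AT3G62550* (1.16), *BT2* (1.08), *AT3G53980* (0.98), *CYP71A27* (0.98) and *AT4G24015* (0.90).

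Among the named genes with a smaller response, clock and flowering genes were *PRR9* (−1.38), *CCA1* (−1.17), *LNK3* (−1.16), *LNK2* (−0.56), *LNK1* (−0.55), *CDF1* (−0.81), *CDF3* (−0.73), *COL1* (−0.75) and *COL2* (−1.13), next to the B-box genes *BBX16* (−1.89), *BBX18* (−1.19) and *BBX25* (−0.86). Chaperone genes were *HSP101* (−1.37), *HSP70* (−1.15) and *HSP90.1* (−0.92). Plastid and starch genes were *SIGE* (−1.35), *BCH2* (−1.13), *LHCB2.3* (−0.94), *LHCB1.1* (−0.57), *LHCB1.4* (−0.54), *LHCB3* (−0.53), *LHCB1.2* (−0.47), *BAM9* (−0.80), *BAM1* (−0.58) and *APL3* (−0.76). Genes of abscisic acid responses and of specialised metabolism were *ABF3* (−0.95), *HAB1* (−0.76), *RD22* (−0.73), *UGT78D2* (−1.03) and *MYB29* (−0.62). The other named genes with a smaller response were *RING1* (−1.54), *AT2G18193* (−1.53), *cPT4* (−1.44), *SULTR3;1* (−1.30), *SAG29* (−1.29), *THI2.2* (−1.26), *AT1G24147* (−1.25), *AT1G70250* (−1.22), *SQP1* (−1.17) and *AO* (−1.15).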

How the results depend on the processing

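Over 21 alternatives the 63 named genes that were called kept their direction throughout. The calls of 34 were kept in every alternative and those of 47 in all that used every library. The others were lost without TMM factors (*APL3*, *CDF1*, *HAB1*, *HSP101*, *HSP90.1*, *LHCB1.4*, *LHCB3* and *SAG29*), with upper-quartile factors (*LHCB1.4*, *LHCB3* and *SAG29*), without the filter (*DRM2*, *HSP101*, *HSP90.1*, *KIN1* and *LHCB2.3*), with limma-voom (*COL9*, *ELF4*, *HSP101*, *LHCB1.4* and *SAG29*), in thinned libraries (*COL9* and *SAG29*) or with the replicate block. Among the named genes not called, *LHY* gained a call with DESeq2 and without *rve8* + mock replicate 3. *LUX* gained a call without *RVE8:GR* + DEX replicate 2. With DESeq2 the counts were 89 larger and 349 smaller, and at an adjusted p under 0.05 they were 132 and 428. At that threshold the EE share of the larger set was 55.4%, and 64.8% with DESeq2, so the share was lower in the wider sets. The calls in single contrasts at 0.05 were 1345 for DEX in *RVE8:GR* (685 at 0.01), 2476 for DEX in *rve8* (1103), 1069 for the lines after mock (344, and 671 with DESeq2) and 1458 for the lines after DEX (842). The members called over the 23 lists made first rose from 35 to 68 at 0.05 and 62 with DESeq2.

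Leaving out 1 library gave 29 to 62 larger and 97 to 255 smaller calls. The larger fell to 29 without *RVE8:GR* + DEX replicate 1 and to 31 without *rve8* + DEX replicate 1. The smaller fell to 97, 115 and 124 without *RVE8:GR* + DEX replicates 1, 2 and 3, to 115 without *RVE8:GR* + mock replicate 2, to 116 and 109 without *rve8* + DEX replicates 1 and 2, and to 98 without *rve8* + mock replicate 2. The upper ends, 62 and 255, came without *rve8* + mock replicate 3, as did 1403 calls for DEX in *rve8*. The cause was not tested. The ranges were 377 to 823 for DEX in *RVE8:GR*, 512 to 1403 for DEX in *rve8*, 138 to 620 for the lines after mock, 529 to 952 for the lines after DEX, 15 to 45 for list members, 62.3% to 86.0% for the EE and 18% to 29% for the G-box in the larger set, and 20.3% to 26.8% and 37.3% to 47.4% in the smaller set. The calls for DEX in *RVE8:GR* fell to 384 and 383 without *RVE8:GR* + DEX replicates 1 and 3 and to 377 without *RVE8:GR* + mock replicate 2. Those for DEX in *rve8* fell to 585 and 660 without *rve8* + DEX replicates 1 and 2 and to 724 and 512 without *rve8* + mock replicates 1 and 2. For the lines after mock there were 183 and 227 without *RVE8:GR* + mock replicates 1 and 2, and 211, 138 and 620 without *rve8* + mock replicates 1, 2 and 3. For the lines after DEX there were 529 without *rve8* + DEX replicate 2. List members called fell to 15, 22 and 19 without *RVE8:GR* + DEX replicates 1, 2 and 3, to 17 without *RVE8:GR* + mock replicate 2, to 22 and 20 without *rve8* + DEX replicates 1 and 2 and to 22 without *rve8* + mock replicate 2.

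The labels do not say whether a replicate number marks a shared day or batch, and this was not tested. Deviations of same-numbered libraries of different groups had correlations of −0.083 to 0.209, with a median of 0.041. For libraries with different numbers the range was −0.221 to 0.173 and the median −0.024. A fit with the replicate number as a block called 61 larger and 199 smaller, and 8 named calls were lost in it, those of *ELF4*, *HSP101*, *HSP70*, *KIN1*, *LHCB1.2*, *LHCB1.4*, *LNK2* and *SAG29*. The call of *LHCB1.2*, with a mean of 4500 CPM and a difference of −0.47, was lost in 11 of 21 alternatives. That of *CEL5*, with a mean of 5.73 CPM and a difference of 1.39, was lost in none of them. How lost calls relate to the level of a gene was not tested.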

Other observations

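Further genes with a smaller response in *RVE8:GR* act in ascorbate, inositol and sugar phosphate metabolism, and all the genes of this paragraph and the next were named after their values were seen. *VTC2* encodes a GDP-L-galactose phosphorylase of ascorbate synthesis. It stood at 80.8, 91.7 and 91.2 CPM in *RVE8:GR* + DEX and at 138, 133 and 123 in *RVE8:GR* + mock, against 156, 177 and 160 in *rve8* + DEX and 123, 134 and 140 in *rve8* + mock. It thus fell with DEX in one line (log2 change −0.58) and rose in the other (0.31), a difference in response of −0.89 (SE 0.101, adjusted p = 4.15e-05 by edgeR's quasi-likelihood test). *MIPS1*, a myo-inositol phosphate synthase, fell from 101, 105 and 83.2 CPM to 56.0, 58.4 and 55.3 in *RVE8:GR*, while *rve8* had 69.8, 71.9 and 77.6 after mock and 88.8, 90.2 and 83.2 after DEX, a change that was not called. *GPT2*, a plastid glucose-6-phosphate translocator, differed by −1.04 (SE 0.153, adjusted p = 0.000976), and here the lines already differed after mock, with 88.8, 87.2 and 76.5 CPM in *RVE8:GR* and 32.6, 34.5 and 29.3 in *rve8*. The neighbouring nitrilase genes *NIT1* (−0.74) and *NIT2* (−0.66) were alike in that both fell with DEX in *RVE8:GR*, by 0.69 and 0.54 on the log2 scale, with no call in *rve8*.

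Other genes rose with DEX in *rve8* without a call in *RVE8:GR*. *AOX1A*, the alternative oxidase of mitochondria, had 45.2, 46.5 and 48.1 CPM in *rve8* + mock and 70.8, 90.5 and 70.7 in *rve8* + DEX, but 56.9, 68.8 and 56.0 in *RVE8:GR* + mock and 56.6, 48.6 and 49.9 in *RVE8:GR* + DEX. *NDA1*, an alternative NAD(P)H dehydrogenase, rose by 0.56 in *rve8* and changed by −0.30 in *RVE8:GR* (adjusted p = 0.0423, not called). *SQE3*, a squalene epoxidase of sterol synthesis, rose by 0.77 in *rve8* against a change of −0.10 in *RVE8:GR*. The aquaporin gene *PIP1B* rose by 0.32 in *rve8*, and its difference of −0.42 was called in 1 of the 12 fits that left out a library, whereas that of the aquaporin *PIP2A* (−0.72) was called in all 12.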
